A study of Mus musculus with 2 samples.

Results

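The genes described here are 10 components of the Wnt signalling pathway, read by their symbols out of the 32285 genes counted in single cells of mouse gastruloids. They are the ligand genes Wnt3, Wnt3a, Wnt8a, Wnt5a and Wnt5b, the R-spondin gene Rspo3, the Frizzled receptor genes Fzd5, Fzd7 and Fzd10, and the co-receptor gene Lrp6. They were read in barcodes with at least 2500 UMIs, at least 1000 genes and at most 10% of UMIs from mitochondrial genes, which left 8707 and 10587 cells in the 2 libraries. A UMI is a tag that lets copies of 1 captured molecule be counted once. All 10 genes had UMIs in both libraries. Wnt3, Wnt8a, Rspo3, Fzd7, Fzd10 and Lrp6 had a mean of at least 10 CPM, which is the UMI count scaled to a common library total, Wnt5a, Wnt5b and Fzd5 lay between 1 and 10 CPM, and Wnt3a lay below 1.

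Gastruloids are clumps of embryonic stem cells that begin to pattern a body axis in culture. Here aggregates were started from about 300 cells of R1, a mouse embryonic stem cell line, in N2B27 medium without serum, and were exposed to 3 µM of the GSK3 inhibitor CHIR for the last 12 h before collection at day 2.5. The first library is labelled wild type (WT), the second double mutant for Sp5 and Sp8 (Sp5/8 dKO), and both received CHIR, so the effect of CHIR itself is not compared. Each genotype has 1 library made from pooled gastruloids, the number pooled is not given in the sources used here, and neither is how the mutant cells were derived or whether they are 1 clone.

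Wnt ligands are secreted, lipid-modified proteins that bind Frizzled receptors together with the co-receptors Lrp5 and Lrp6, which stops the destruction of beta-catenin and lets it act with TCF and LEF factors on target genes. R-spondins bind Lgr receptors and keep the ubiquitin ligases Znrf3 and Rnf43 from removing Frizzled proteins, so they raise the sensitivity of a cell to Wnt. In the mouse embryo Wnt3 is needed for the primitive streak, where T and Eomes are expressed, and Wnt5a and Wnt5b act mostly without beta-catenin, through receptors such as Ror2. Irx3 marks the early neural plate and the late epiblast, and CHIR acts below the receptors, by blocking GSK3 inside the cell.

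The cells held 97157331 UMIs in the library labelled WT and 97644169 in the library labelled dKO, with medians of 10571 and 8637 UMIs and of 3275 and 2884 genes per cell. These gene medians lie below the 5333 and 5398 stated in the labels, so the deposited counts do not give the stated values under these limits. The libraries shared 27 cell barcodes, 0.310% and 0.255% of their cells. Sp5 and Sp8, the genes labelled as mutant, were higher in the library labelled dKO, with 109 and 479 CPM for Sp5 (log2 ratio 2.13, 2.10 to 2.16) and 20.8 and 40.1 CPM for Sp8 (0.95, 0.87 to 1.03). These 3′ counts cannot show whether a part of either gene is missing. The genotype label says double mutant and not what was changed, so the RNA levels do not settle whether the label is right. The libraries are therefore named by their labels throughout, and no direction below stands for a loss of Sp5 or Sp8. With 1 library for each genotype there is no replicate and no test, and every interval is a 95% interval that covers counting error only.

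Sequences upstream of 3 members are shown because these 3 carry the results below. Wnt3 was higher in cells with streak markers, Fzd7 was higher in cells with Irx3, and Wnt5b differed most between the libraries among members at 1 CPM or more. RefSeq promoter windows (GRCm38.p6) were found for 6 of the 10 members, and the 250 bases before the RefSeq start are given as far as they lie outside the GENCODE M21 gene. Lower case marks all bases except matches to 1 of 3 motifs searched on both strands, which are in capitals. The motifs were the GC box GGGCGG, to which SP factors bind, the TCF/LEF core TCAAAG and the T-box motif AGGTGT.
Wnt3, chr11:103773925-103774149, plus strand: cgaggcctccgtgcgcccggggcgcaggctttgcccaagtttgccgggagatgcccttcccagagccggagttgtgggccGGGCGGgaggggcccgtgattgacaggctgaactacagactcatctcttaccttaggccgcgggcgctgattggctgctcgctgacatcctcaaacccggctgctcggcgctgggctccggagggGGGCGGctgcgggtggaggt
Wnt5b, the most upstream of 3 windows, chr6:119544348-119544597, minus strand: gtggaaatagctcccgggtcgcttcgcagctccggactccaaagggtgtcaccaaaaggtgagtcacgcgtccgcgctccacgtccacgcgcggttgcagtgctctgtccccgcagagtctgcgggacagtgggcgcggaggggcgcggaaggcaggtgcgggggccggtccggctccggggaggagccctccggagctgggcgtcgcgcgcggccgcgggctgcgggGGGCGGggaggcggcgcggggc
Fzd7, chr1:59481897-59482146, plus strand: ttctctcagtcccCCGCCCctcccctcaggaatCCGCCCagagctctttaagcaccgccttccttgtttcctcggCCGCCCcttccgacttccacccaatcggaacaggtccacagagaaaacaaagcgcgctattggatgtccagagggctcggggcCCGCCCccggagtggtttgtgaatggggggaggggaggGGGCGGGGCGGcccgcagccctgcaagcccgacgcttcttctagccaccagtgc
The Wnt3 window held 2 GC boxes, at bases -170 and -45 from the start, the Wnt5b window held 1 at -22, and the Fzd7 window held 6, of which those at -54 and -49 share a base. The Fzd7 window ends 277 bases before the GENCODE start of the gene. None of the 3 windows held the TCF/LEF core or the T-box motif. Of the other 2 Wnt5b windows, which lie inside the gene and are not shown, the one at chr6:119449387-119449636 held the TCF/LEF core at -71, the T-box motif at -44 and 2 GC boxes. Among all 32851 RefSeq windows of the same length, 32.7% held a GC box, 13.8% the TCF/LEF core and 11.8% the T-box motif. These shares are not matched for base content. The 250-base windows of Wnt3, Wnt5b and Fzd7 were 68%, 75.2% and 65.2% G or C, against a median of 52.4% over all windows. A match is a string of letters and not a measured binding site.

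Among the ligand members, Wnt3 was higher in cells with streak markers in both libraries. At 1 CPM or more, Wnt5b differed most between the libraries among these members. Other ligand genes, given below, had larger ratios in each case. Wnt3 (ENSMUSG00000000125) is a plus-strand gene of chromosome 11, spanning 103774150 to 103817957 (GENCODE M21, GRCm38). It had 44.7 CPM (43.4 to 46.0, 4341 UMIs) in the library labelled WT and 56.5 CPM (55.0 to 58.0, 5515 UMIs) in the library labelled dKO. The log2 ratio, dKO over WT by label, was 0.34 (0.28 to 0.40), or 1.26-fold, and it exceeded that of 98.8% of the genes at 10 CPM or more. In barcodes of 10 to 100 UMIs, which hold free RNA and not cells, Wnt3 had 22.7 and 26.0 CPM, below the level in the cells of either library. Part of the difference moved with which cells were compared. It was 0.27 (0.20 to 0.33) without cells that had a low share of UMIs on chromosome 6 or 11, described below, and 0.22 when each marker class had the same weight in both libraries.

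Wnt5b (ENSMUSG00000030170) lies on the minus strand of chromosome 6 from 119432531 to 119544347. It had 5.01 CPM (4.58 to 5.48, 487 UMIs) in the library labelled WT and 8.38 CPM (7.81 to 8.97, 818 UMIs) in the library labelled dKO. Its log2 ratio of 0.74 (0.58 to 0.91) was the only one among the members at 1 CPM or more that passed 0.5 in size, and it lay between 0.65 and 0.77 under the 9 other settings tried. Fbxl14, a gene on the opposite strand that overlaps Wnt5b, had more UMIs, at 52.5 and 45.2 CPM, with a ratio of -0.21 (-0.27 to -0.16). Whether strand was used in counting is not given in the sources used here, so Fbxl14 reads could be among those of Wnt5b, which was not tested.

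Wnt8a (ENSMUSG00000012282, chromosome 18), a ligand of the early streak, had 12.9 CPM (12.2 to 13.6) and 14.04 CPM (13.3 to 14.8) in the libraries labelled WT and dKO. Its ratio was 0.13 (0.02 to 0.24), and -0.0064 (-0.23 to 0.22) when each cell was thinned to 2500 UMIs. In the free RNA it had 13.4 and 16.5 CPM, no less than in the cells. Free RNA barcodes held 10 to 100 UMIs, against medians of 10571 and 8637 in the cells. How much of the Wnt8a count in cells is free RNA was not estimated.

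Wnt5a (ENSMUSG00000021994) is a plus-strand gene of chromosome 14, spanning 28504750 to 28527448, and the antisense gene model Gm2670 that overlaps it had 2 and 1 UMIs. It had 2.90 CPM (2.57 to 3.26, 282 UMIs) and 2.78 CPM (2.45 to 3.13, 271 UMIs), a ratio of -0.06 (-0.31 to 0.18) that does not separate the libraries. In the free RNA it had 3.54 CPM on 14 UMIs and 1.57 CPM on 4. Wnt3a (ENSMUSG00000009900), on chromosome 11 from 59248033 to 59290752, is a ligand of the later streak and tail bud. It had 7 UMIs in the library labelled WT and 4 in the library labelled dKO, never more than 1 in a cell and none in the free RNA, close to the 3 counts that a count of 0 allows. Of these UMIs, 6 of 7 and 4 of 4 came from Eomes-positive cells, which held 48.6% and 66.6% of all UMIs. In both libraries the interval of the Wnt3a ratio between Eomes-positive and Eomes-negative cells included 0. These few UMIs therefore do not show that Wnt3a differs with Eomes.

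Rspo3 (ENSMUSG00000019880), the R-spondin gene of the posterior epiblast and streak, lies on the minus strand of chromosome 10 from 29452416 to 29535867. It had 30.1 CPM (29.0 to 31.2) in the library labelled WT and 32.5 CPM (31.4 to 33.7) in the library labelled dKO. Its ratio was 0.11 (0.04 to 0.18), and 0.06 (-0.02 to 0.14) without the cells low on chromosome 6 or 11. The annotation places 2 other gene models over Rspo3, of which the antisense model Gm48159 had 8 and 11 UMIs.

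Over all cells, all 4 receptor and co-receptor genes were lower in the library labelled dKO, each by less than 0.5. Fzd7 (ENSMUSG00000041075, chromosome 1 from 59482424 to 59486955, plus strand), a main Frizzled receptor of stem cells and the epiblast, had 20.8 CPM (19.9 to 21.7) and 16.9 CPM (16.1 to 17.7). Its ratio was -0.30 (-0.39 to -0.20), lower than that of all but 2.50% of the genes at 10 CPM or more. In the free RNA Fzd7 had 18.4 and 19.3 CPM, the second above the level in the cells of that library. How much of the Fzd7 count in cells is free RNA was not estimated. Fzd5 (ENSMUSG00000045005, chromosome 1 from 64730558 to 64737751, minus strand) had 6.95 CPM (6.43 to 7.49) and 6.07 CPM (5.59 to 6.58), a ratio of -0.19 (-0.36 to -0.03) that became -0.50 (-0.85 to -0.16) in thinned cells.

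Fzd10 (ENSMUSG00000081683), a plus-strand gene of chromosome 5 spanning 128600844 to 128604093, had 29.6 CPM (28.6 to 30.7) and 26.0 CPM (25.0 to 27.0). Its ratio of -0.19 (-0.27 to -0.11) was -0.078 (-0.17 to 0.01) without the cells low on chromosome 6 or 11. Lrp6 (ENSMUSG00000030201), on the minus strand of chromosome 6 from 134446476 to 134566965, encodes the co-receptor that Wnt-bound Frizzled proteins recruit. It had 40.1 CPM (38.9 to 41.4) and 35.6 CPM (34.4 to 36.8), a ratio of -0.17 (-0.24 to -0.11). Fzd5, Fzd7, Fzd10 and Lrp6 also had negative ratios when libraries were scaled by TMM, with an all-gene median of 0.006 in place of -0.02 at 10 CPM or more.

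At 10 CPM or more, 0 of 6 members passed 0.5 in size between the libraries, where 65 of 7607 genes, or 0.854%, did. At 1 CPM or more, 1 of 9 members passed it, Wnt5b, where 302 of 12406 genes, or 2.43%, did. Differences between the libraries in the members were thus mostly small, and their median at 10 CPM or more was -0.03, against -0.02 for all genes tested.

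**Figure D1:**
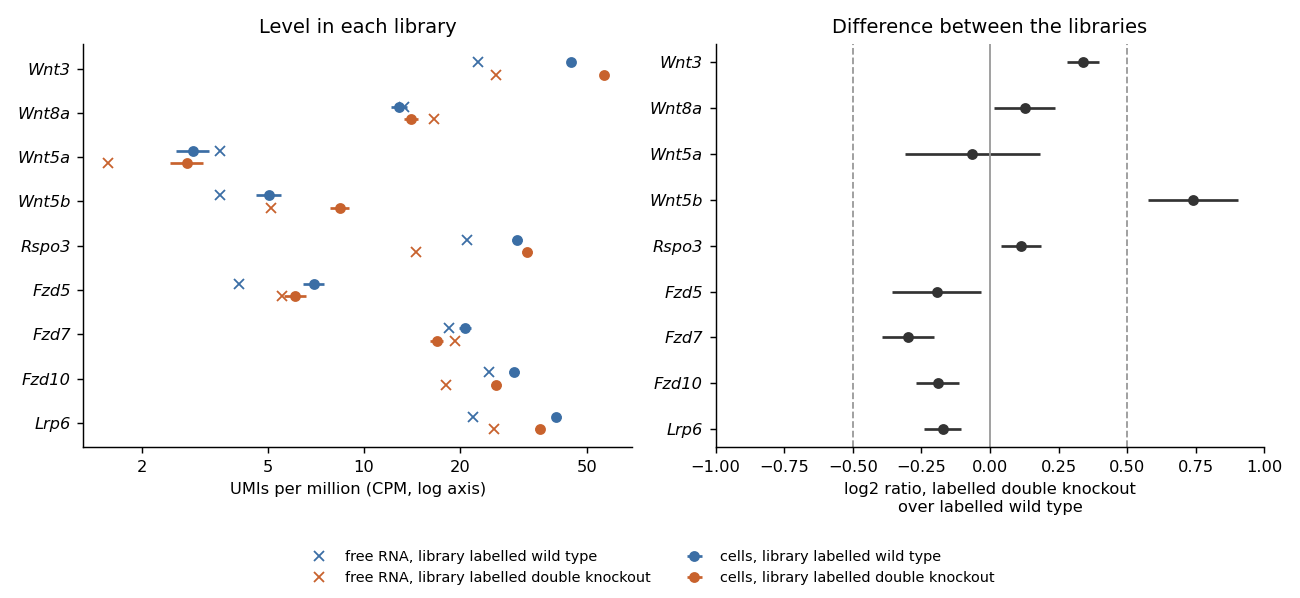
Left, CPM of 9 members in each library (points, with 95% Poisson intervals) and in barcodes of free RNA (crosses), on a log axis. Right, the log2 ratio between the libraries with 95% counting intervals and dashed lines at 0.5 in size. Wnt5b lies past the line at 0.74, Wnt3 at 0.34 is the next highest, and the 4 receptor genes lie below 0. Wnt3a, with 7 and 4 UMIs, is not drawn.

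Cells were then grouped by T, Eomes and Irx3, calling a cell positive if it held at least 1 UMI of the gene. T-positive cells numbered 2267 (26.0%) in the library labelled WT and 3100 (29.3%) in the library labelled dKO, Eomes-positive cells 3780 (43.4%) and 6547 (61.8%), and Irx3-positive cells 1346 (15.5%) and 657 (6.21%). Positive cells were deeper than negative ones. T-positive cells had medians of 11773 and 9771 UMIs against 10129 and 8251, so all values below are in CPM. In the free RNA T had 25.3 and 26.8 CPM and Eomes 49.5 and 101 CPM, below the 38.8 and 50.7 CPM and the 91.2 and 186 CPM of the cells. Irx3 had 27.0 and 10.6 CPM in the free RNA against 19.8 and 8.17 CPM in the cells. Free RNA barcodes held 10 to 100 UMIs, against medians of 10571 and 8637 in the cells. How many cells are Irx3-positive through free RNA was not estimated, and the Irx3 groups are read with this limit.

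The groups were checked against marker lists, counting genes that differed by at least 0.5 in log2 ratio. Of 6 other primitive streak genes at 1 CPM or more (Mixl1, Eomes, Mesp1, Fgf8, Gsc and Lhx1), all 6 were higher in T-positive cells of the library labelled WT, and in the library labelled dKO 4 of 5 were. Of 6 neural or late epiblast genes, which include Irx3, Irx5, Sox1 and Sox3, 5 were lower in T-positive cells of each library. Irx3-positive cells showed the reverse, with 4 of 5 and 5 of 5 of the other neural genes higher and 5 of 7 and 5 of 6 streak genes lower. Of the 4 primed epiblast genes, Fgf5 and Otx2 were past 0.5 and higher in Eomes-positive cells, at 1.20 and 1.21 in the library labelled WT and 0.89 and 0.80 in the other. Dnmt3b was at 0.40 in each library and Pou3f1 at -0.35 and -0.44. Naive pluripotency genes, which would mark embryonic stem cells as the samples are labelled, summed to 29.3 to 43.3 CPM over the positive and negative groups, and 3 or more of the 7 had a UMI in 48 cells (0.551%) and 29 cells (0.274%). The 6 extraembryonic endoderm genes summed to 7.57 to 13.5 CPM, from Sox7 at 0.278 and 0.215 CPM to Dab2 at 6.33 and 5.92 CPM. Of the anterior streak and endoderm list, Cer1 was at 0 and 0.0205 CPM, Sox17 at 0.844 and 0.676, Foxa2 at 2.28 and 6.81, and Hhex at 7.06 and 5.90. Foxa2 was higher in Eomes-positive cells, at 1.35 and 2.52, while Sox17 and Hhex were lower. Of 3 caudal genes at 1 CPM or more, 1 was higher and 1 lower in T-positive cells of the library labelled WT, and 0 of 2 differed in the other. The part of these genes in the results below was not tested. Antisense gene models overlap Eomes and Irx3, and their reads could be among those of the markers.

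Wnt3 was higher in cells with a streak marker and lower in cells with Irx3, in both libraries. In T-positive cells it had 55.1 CPM against 40.3 CPM in T-negative cells of the library labelled WT, a log2 ratio of 0.45 (0.36 to 0.54). The library labelled dKO gave 68.2 against 50.6 CPM, a ratio of 0.43 (0.35 to 0.51). In Eomes-positive cells it had 54.3 against 35.6 CPM (0.61, 0.52 to 0.70) and 62.4 against 44.7 CPM (0.48, 0.40 to 0.57). Thus Eomes-positive cells held 59.1% of the Wnt3 UMIs with 48.6% of all UMIs in the library labelled WT, and 73.6% with 66.6% in the library labelled dKO. In Irx3-positive cells Wnt3 had 33.8 against 46.9 CPM (-0.47, -0.60 to -0.34) and 40.4 against 57.6 CPM (-0.51, -0.70 to -0.34). Requiring 2 UMIs for a positive cell widened each contrast, to 0.70 and 0.52 for T, 0.73 and 0.56 for Eomes, and -0.89 and -1.17 for Irx3. With cells thinned to 2500 UMIs before they were called, the ratios were 0.39 and 0.28 for T, 0.54 and 0.38 for Eomes and -0.55 and -0.56 for Irx3, where the last has an interval that includes 0 (-1.31 to 0.04). Without the cells low on chromosome 6 or 11 they were 0.43 and 0.41 for T, 0.55 and 0.44 for Eomes and -0.47 and -0.51 for Irx3.

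Few genes passed 0.5 in size in these contrasts, a limit that Wnt3 itself passed in only some of them. In the library labelled WT, 1.26% of 7629 genes at 10 CPM or more passed 0.5 in size between Eomes-positive and Eomes-negative cells, and of 6 members only Wnt3 did. The share was 0.76% of 7627 genes for T and 1.1% of 7640 for Irx3, with 0 of 6 members past it in each. For the library labelled dKO the shares were 0.448% of 7594 genes for T and 0.909% of 7590 for Eomes, with 0 of 6 members, and 1.57% of 7637 for Irx3, where 1 of 6, Wnt3, was lower.

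Wnt5a, at a low level, had the opposite pattern. Irx3-positive cells had 5.23 CPM against 2.43 CPM in the library labelled WT (1.11, 0.72 to 1.48) and 4.69 against 2.64 CPM in the library labelled dKO (0.85, 0.24 to 1.37). In Eomes-positive cells it had 1.93 against 3.82 CPM (-0.98, -1.36 to -0.62) and 2.37 against 3.59 CPM (-0.60, -0.96 to -0.24). T-positive cells gave ratios of -0.71 (-1.16 to -0.29) and -0.43 (-0.84 to -0.04). Irx3-positive cells of the library labelled WT thus held 30.5% of the Wnt5a UMIs with 16.9% of all UMIs, on 86 of 282 UMIs. The values rest on few UMIs, and in thinned cells the Irx3 ratio of the library labelled dKO had an interval from -2.70 to 2.27.

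Wnt5b, the closest relative of Wnt5a, was higher in Eomes-positive cells. It had 5.68 against 4.38 CPM in Eomes-positive and Eomes-negative cells (0.37, 0.11 to 0.64) and 9.08 against 6.97 CPM (0.38, 0.16 to 0.61). In Irx3-positive cells its ratios were -0.30 (-0.69 to 0.07) and -0.52 (-1.04 to -0.07). The 2 noncanonical ligands thus lay on different sides of 0 for both markers in both libraries, although in thinned cells Wnt5b gave 0.01 for Eomes and 0.04 for Irx3 in the library labelled dKO.

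Wnt8a differed little with the markers. Its Eomes ratios were 0.23 (0.07 to 0.39) and 0.28 (0.11 to 0.45), and its T ratios, 0.11 and 0.13, had intervals that include 0. Rspo3 was higher in Eomes-positive cells, with 34.3 against 26.1 CPM (0.39, 0.29 to 0.50) and 34.7 against 28.2 CPM (0.30, 0.19 to 0.41), and in T-positive cells by 0.25 (0.13 to 0.36) and 0.17 (0.06 to 0.27), the latter -0.04 in thinned cells. For Irx3 its ratios of -0.14 and -0.09 had intervals that include 0.

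The receptor members varied less. Like Wnt5a and some receptor genes given below, Fzd7 was higher in Irx3-positive cells. For Eomes it gave 0.01 (-0.12 to 0.14) and 0.19 (0.03 to 0.34), so it did not share the low Wnt5a level of Eomes-positive cells. Fzd7 had 25.2 CPM in Irx3-positive cells against 19.9 CPM in Irx3-negative cells of the library labelled WT (0.34, 0.18 to 0.50). In the library labelled dKO it had 20.9 against 16.6 CPM (0.33, 0.07 to 0.58). With 2 Irx3 UMIs for a positive cell the ratios were 0.66 (0.40 to 0.90) and 1.05 (0.50 to 1.51). Fzd10 was higher in T-positive cells by 0.19 (0.07 to 0.30) and 0.13 (0.02 to 0.25), while Fzd5 gave T and Eomes ratios between -0.03 and 0.06. Lrp6 stayed within 0.13 of 0 for every marker in both libraries. With other settings for a positive cell Lrp6 reached 0.33 for Irx3 and Fzd5 0.63 for Eomes in the library labelled dKO.

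**Figure D2:**
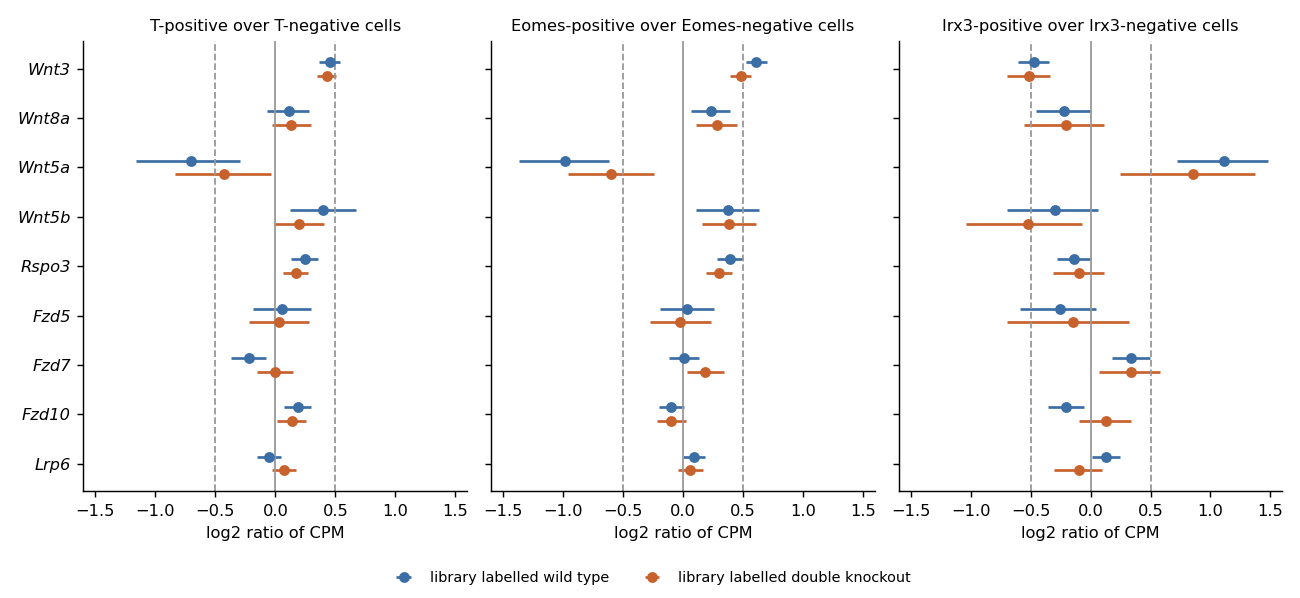
Log2 ratio of CPM in cells with at least 1 UMI of T, Eomes or Irx3 over cells without, for 9 members in each library, with 95% counting intervals and dashed lines at 0.5 in size. Wnt3 lies right of 0 for T and Eomes and left for Irx3, and Wnt5a lies on the other side in each panel.

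Because 1 cell can hold several markers, cells were split into 6 classes that do not overlap. The order of the classes by Wnt3 level was the same in both libraries. In the library labelled WT Wnt3 had 60.5 CPM (56.9 to 64.3) in cells with T and Eomes, 52.1 CPM with Eomes only, 45.7 with T only and 43.2 with Irx3 and a streak marker. It had 35.8 CPM in cells with none of the 3 genes and 26.1 CPM (22.9 to 29.7) with Irx3 only. The library labelled dKO gave 71.7 (68.5 to 75.1), 57.5, 55.8, 45.1, 43.4 and 33.6 CPM (27.0 to 41.2) in the same order. The highest class exceeded the lowest 2.31-fold and 2.12-fold. Neighbours in that order overlapped in their intervals for Eomes only and T only, and for T only and Irx3 with a streak marker, in both libraries, and in the library labelled dKO for the 3 lowest classes as well. Within each class Wnt3 was higher in the library labelled dKO, by 0.14 (0.04 to 0.24) in cells with Eomes only, 0.24 (0.14 to 0.36) with T and Eomes, 0.29 (0.06 to 0.51) with T only and 0.28 (0.15 to 0.40) with none. The intervals included 0 in the classes with Irx3, at 0.37 (-0.00277 to 0.72) without and 0.07 (-0.21 to 0.33) with a streak marker, and the latter was -0.04 with classes called in thinned cells.

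Wnt5a ran in nearly the reverse order in the library labelled WT, from 6.40 CPM (4.86 to 8.27) with Irx3 only to 1.49 CPM (0.971 to 2.18) with T and Eomes, 4.26-fold. In the library labelled dKO its highest class was Irx3 with a streak marker, at 5.64 CPM (3.54 to 8.54), and cells with Irx3 only had 3.32 CPM on 9 UMIs. Fzd7 was highest with Irx3 only in both libraries, at 28.0 CPM (24.7 to 31.7) and 22.9 CPM (17.5 to 29.3). Its lowest class was T only in the library labelled WT, at 15.5 CPM, and cells with none of the 3 in the other, at 14.7 CPM. The receptor ratios between the libraries varied by class. Fzd7 ran from -0.44 (-0.63 to -0.25) with none to -0.04 (-0.46 to 0.37) with T only. Lrp6 ran from -0.53 (-0.89 to -0.19) with Irx3 only to -0.0023 (-0.27 to 0.26) with T only. Fzd10 was at 0.08 (-0.34 to 0.47) with Irx3 only and 0.06 (-0.28 to 0.39) with Irx3 and a streak marker, where Fzd5 was at 0.03 (-0.78 to 0.78).

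Rspo3 was lowest with Irx3 only, at 21.7 and 23.6 CPM, and had 35.3 and 35.4 CPM in cells that held Irx3 and a streak marker. Highest over lowest class was 1.65-fold and 1.49-fold. Wnt5b was higher in the library labelled dKO in every class, from 0.14 (-0.68 to 0.90) with Irx3 and a streak marker to 0.90 (-0.09 to 1.81) with Irx3 only, and its interval excluded 0 in cells with none (0.65), with Eomes only (0.75) and with T and Eomes (0.62). With classes called in thinned cells the last of these was -0.04. Without doublets the value with Irx3 and a streak marker was -0.32, so no direction holds in that class.

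**Figure D3:**
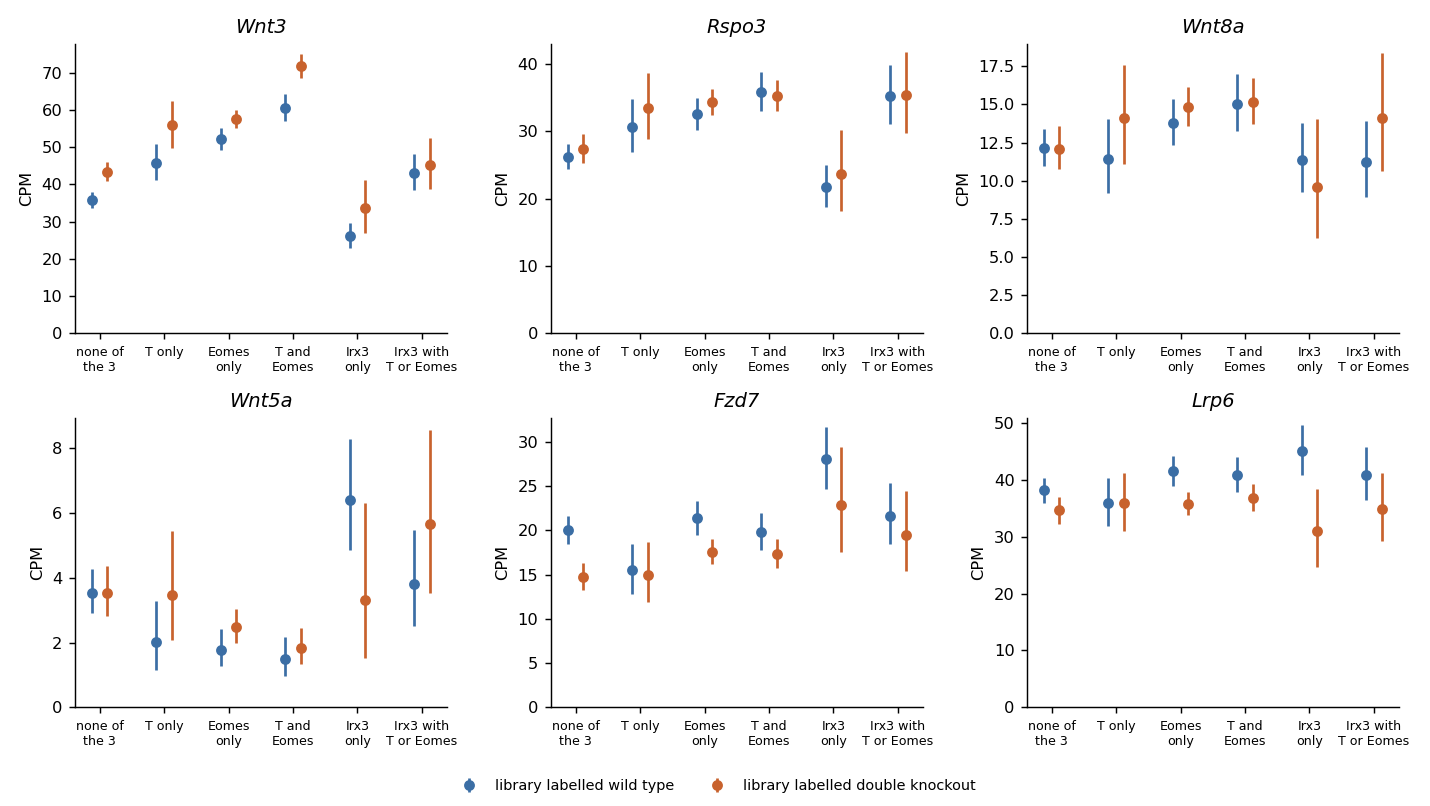
CPM of 6 members in cells with none of T, Eomes and Irx3, with T only, Eomes only, T and Eomes, Irx3 only, or Irx3 with T or Eomes, in each library, with 95% Poisson intervals. The axis starts at 0 and differs between panels. Wnt3 is highest in cells with T and Eomes, at 60.5 and 71.7 CPM, where Wnt5a is lowest, at 1.49 and 1.84 CPM.

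With each cell thinned to 2500 UMIs, Wnt3 was followed along the number of T UMIs. Cells with 0, 1 and 2 T UMIs had 44.0 (41.2 to 47.0), 55.3 (44.2 to 68.4) and 80.0 CPM (41.3 to 139.7) of Wnt3 in the library labelled WT. In the library labelled dKO they had 54.9 (51.9 to 57.9), 64.4 (54.7 to 75.3) and 79.4 CPM (51.4 to 117). At 3 or more T UMIs Wnt3 had 44.4 CPM (1.13 to 247.6) on 9 cells and 76.2 CPM (20.8 to 195.1) on 21 cells, which does not extend the order. The intervals of cells with 1 and 2 UMIs overlapped in both libraries, since only 60 and 126 cells had 2. By Eomes, cells with 0, 1, 2 and 3 or more UMIs had 41.9, 62.2, 53.2 and 67.9 CPM in the library labelled WT, and 51.1, 62.9, 78.0 and 68.3 CPM in the library labelled dKO. By Irx3, Wnt3 went from 45.8 CPM at 0 to 31.7 CPM (21.4 to 45.2) at 1 UMI, and from 56.5 to 39.4 CPM (24.1 to 60.9).

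**Figure D4:**
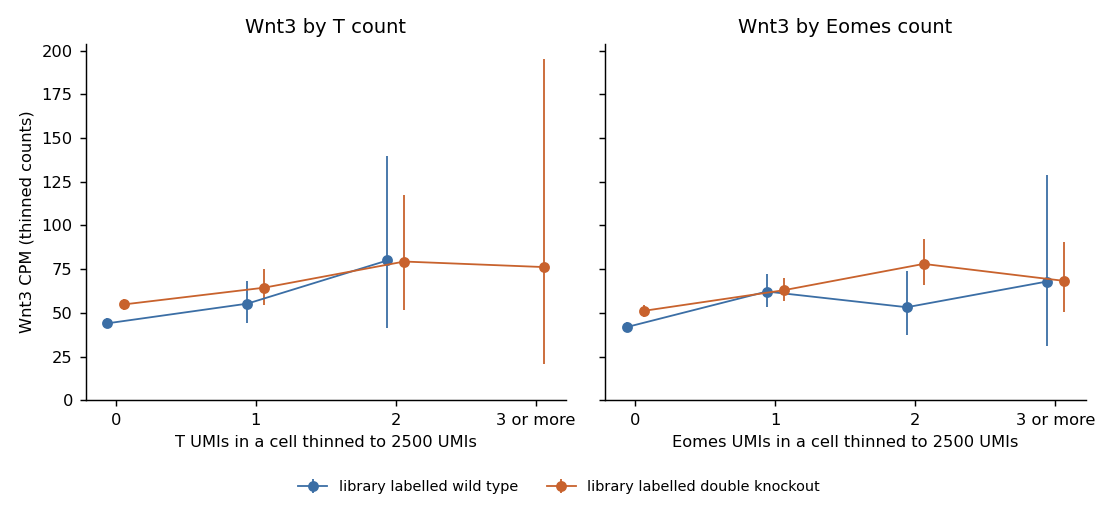
Wnt3 CPM in cells thinned to 2500 UMIs, by the number of T (left) or Eomes (right) UMIs left in the cell, with 95% Poisson intervals, for each library. Bins of fewer than 20 cells are not drawn. Wnt3 goes from 44.0 to 80.0 CPM between 0 and 2 T UMIs in the library labelled WT, with wide intervals at 2.

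The share of cells with a UMI was compared at the same depth. Thinned to 2500 UMIs, 10.4% of cells (9.75 to 11.04, Clopper-Pearson intervals) in the library labelled WT and 12.7% (12.1 to 13.4) in the library labelled dKO had a Wnt3 UMI, against 34.7% and 36.4% unthinned. Among cells with naive markers, the group taken as background, 2 of 48 (4.17%, 0.509 to 14.3) and 2 of 29 (6.90%, 0.846 to 22.8) had one after thinning. Those cells had medians of 11974 and 9492 UMIs before thinning, and their number is too small to set a firm background. By marker the Wnt3 share was 12.2% and 15.0% of T-positive cells, 13.1% and 14.2% of Eomes-positive cells, and 7.13% and 10.4% of Irx3-positive cells. Fzd7 was found in 5.41% (4.94 to 5.91) and 4.14% (3.77 to 4.53) of thinned cells and 19.8% and 13.9% of unthinned ones. As for Wnt3, 2 of 48 and 2 of 29 thinned cells with naive markers had it. So few cells do not decide whether the share of either gene lies above that background. Unthinned, Lrp6 was found in 34.3% and 27.0% of cells, and thinned in 9.46% and 8.62%, where 5 of 48 and 3 of 29 cells with naive markers also had it. Wnt3a had a UMI in 7 of 8707 cells (0.0804%, 0.0323 to 0.166) and 4 of 10587 cells (0.0378%, 0.0103 to 0.0967) before thinning, and in 0 and 1 after it. For 0 of 8707 cells the limit is 0.0345%, which bounds cells with a UMI at 2500 UMIs and not cells that express the gene.

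Members were seldom found together in thinned cells. Wnt8a was seen in 4.67% (3.61 to 5.94) of cells with a Wnt3 UMI and 3.07% (2.73 to 3.45) of those without in the library labelled dKO, and in 4.09% (2.90 to 5.60) and 3.27% (2.88 to 3.69) in the library labelled WT, where the intervals overlap. For Fzd7, Fzd10, Lrp6 and Rspo3 the intervals in cells with and without Wnt3 overlapped in both libraries.

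Cells with a low share of UMIs on 1 chromosome stood apart, and 4 members lie on the chromosomes concerned. A cell of at least 4000 UMIs was called low where the share, from genes at 10 CPM or more without the members, was at most 0.8 times the median. On chromosome 11, which carries Wnt3 and Wnt3a, 1510 cells (17.9%) were low in the library labelled WT and 601 (5.88%) in the library labelled dKO. On chromosome 6, which carries Wnt5b and Lrp6, 1832 (21.7%) and 1868 (18.3%) were. Both were low in 1222 and 252 cells, which is 66.7% and 13.5% of the cells low on 6 and 80.9% and 41.9% of those low on 11. In the library labelled WT, T-positive cells made up 37.9% of the cells low on 11 and 24.2% of the others, and in the library labelled dKO 42.6% and 29.3%. Irx3-positive cells made up 8.08% and 17.5%, and 2.16% and 6.67%.

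Genes on these chromosomes were lower in such cells, as the grouping implies, and over all cells the interval of Wnt3 held the median of its chromosome. Wnt3 had 31.5 against 47.3 CPM in cells low on chromosome 11 and the others (-0.59, -0.73 to -0.45) in the library labelled WT, where the median of 663 genes on the chromosome was -0.50. The library labelled dKO gave 43.5 against 57.4 CPM (-0.40, -0.61 to -0.20), with a median of -0.53. By class Wnt3 ran from -0.29 (-0.66 to 0.06) with T only to -0.91 (-1.23 to -0.62) with no marker and -1.44 (-2.87 to -0.47) with Irx3 only in the library labelled WT, and from -0.62 to -0.38 in 3 classes of the other. Over cells low on neither chromosome, Wnt3 was at -0.49 (-0.81 to -0.20) and -0.56 (-0.86 to -0.30) in cells low on 11 only. In cells low on both it was at -0.63 (-0.79 to -0.48) and -0.19 (-0.50 to 0.09). Lrp6 in cells low on chromosome 6 was likewise at -0.46 (-0.59 to -0.34) and -0.65 (-0.80 to -0.50), where the median of 376 genes was -0.49 and -0.54.

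Wnt5b was lower than its chromosome. In cells low on chromosome 6 it had 2.46 CPM (47 UMIs) against 5.65 CPM in the library labelled WT, a ratio of -1.19 (-1.67 to -0.77), and 3.50 CPM (59 UMIs) against 9.44 CPM in the library labelled dKO, a ratio of -1.42 (-1.84 to -1.05). Of the 376 genes at 10 CPM or more on the chromosome, 5% lay below -0.82 and -0.80, and 0.266% and 0% lay below Wnt5b, whose own value rests on fewer UMIs than theirs. The 83 genes within 10 Mb of Wnt5b had medians of -0.50 and -0.55, so the region as a whole was not lower than the chromosome. Fbxl14, which overlaps Wnt5b, was at -0.41 (-0.59 to -0.24) and -0.51 (-0.65 to -0.37) in cells low on 6 only, over cells low on neither.

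Fzd10 and Wnt8a lie on neither chromosome and also differed. Fzd10 was higher in cells low on chromosome 11, with 44.5 against 27.0 CPM (0.72, 0.59 to 0.85) and 39.5 against 25.4 CPM (0.64, 0.42 to 0.85). Wnt8a was lower, with 7.10 against 13.96 CPM (-0.97, -1.28 to -0.68) and 9.20 against 14.5 CPM (-0.64, -1.12 to -0.22). Within marker classes the directions were the same. In 5 classes of the library labelled WT Fzd10 was between 0.28 and 1.09, with an interval above 0 in 4, and Wnt8a between -1.47 and -0.67, with an interval below 0 in 4. In 3 classes of the library labelled dKO Fzd10 was between 0.63 and 0.77, above 0 in all 3, and Wnt8a between -1.21 and -0.39, below 0 in 1.

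Because the low groups overlap, cells were also split by both limits, a split chosen after the overlap was seen. Cells low on 6 only, 610 and 1616, had more Wnt8a than cells low on neither, with 17.9 against 13.6 CPM (0.40, 0.12 to 0.66) and 17.5 against 13.9 CPM (0.34, 0.13 to 0.53). Cells low on both had 6.93 CPM (-0.96, -1.31 to -0.65) and 8.02 CPM (-0.75, -1.602 to -0.08). Fzd10 was near the level of the other cells when 6 alone was low, at 0.13 (-0.09 to 0.33) and 0.01 (-0.15 to 0.17), and higher when both were, at 0.80 (0.66 to 0.94) and 0.72 (0.38 to 1.03). When 11 alone was low, Fzd10 was also higher, at 0.41 (0.09 to 0.69) and 0.59 (0.29 to 0.87). Wnt8a was then at -0.76 (-1.47 to -0.18) and -0.44 (-1.06 to 0.07). Wnt5b was lower by 1.28 and 1.56 on the log2 scale in cells low on 6 only, and in cells low on 11 only its ratios of 0.46 (-0.28 to 1.06) and 0.01 (-0.64 to 0.54) had intervals that include 0. Wnt5a, at 43 and 60 UMIs, was higher in cells low on 6 only, by 1.25 (0.72 to 1.72) and 0.61 (0.17 to 1.03). Irx3 in these cells was at 0.15 (-0.09 to 0.38) and 0.75 (0.51 to 0.99), and Irx3-positive cells made up 20% against 17.2% of the cells low on neither, and 9.10% against 6.18%. T-positive cells made up 23.6%, 31.0%, 36.1% and 38.3% of the cells low on neither, 6 only, 11 only and both in the library labelled WT, and 29.97%, 26.1%, 40.4% and 45.6% in the other, and the part of this in the values above was not tested.

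**Figure D5:**
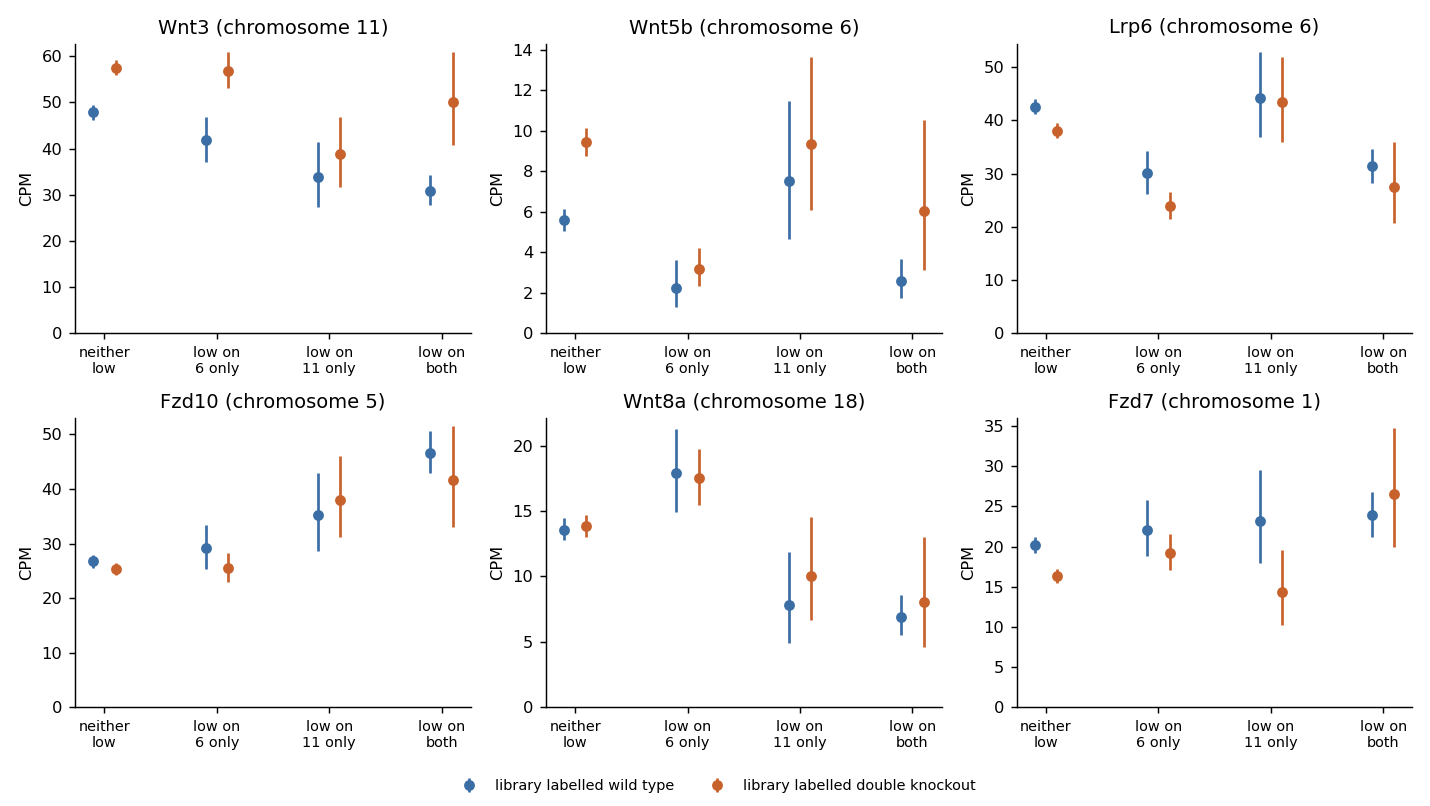
CPM of 6 members in cells of at least 4000 UMIs that were low on neither chromosome 6 nor 11, on 6 only, on 11 only or on both, in each library, with 95% Poisson intervals and axes that start at 0. Wnt5b is at 2.24 and 3.16 CPM in cells low on 6 only against 5.58 and 9.44 CPM in cells low on neither. Fzd10 is highest in cells low on both, with intervals that overlap those of cells low on 11 only.

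The other genes of the pathway were read in lists. Of 14 other ligand genes 0 reached 10 CPM and 5 reached 1 CPM, namely Wnt4, Wnt6, Wnt9a, Wnt11 and Wnt16, named after their values were seen. Of 12 other receptor genes 6 reached 10 CPM. Ptk7, a co-receptor of planar polarity signalling, was the only one past 0.5, with 109 and 76.4 CPM (-0.51, -0.56 to -0.47). Ror2, a receptor of Wnt5a, had 24.1 and 18.8 CPM (-0.36, -0.45 to -0.27) and Fzd3 23.5 and 20.5 CPM (-0.20, -0.29 to -0.12). The median library ratio of the 6 was -0.18, against -0.02 for all genes. For Irx3 all 6 had ratios above 0 in both libraries, from 0.07 for Ryk to 0.50 for Fzd2, both in the library labelled WT. Fzd2, at 110 and 101 CPM, gave 0.50 and 0.46, and Fzd3 gave 0.23 and 0.49, against 0.34 and 0.33 for Fzd7. A higher level in Irx3-positive cells was therefore not particular to Fzd7.

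Of the R-spondins and their receptors, 3 of 8 genes reached 10 CPM and 0 passed 0.5. Rspo1 had 17.0 and 12.1 CPM (-0.49, -0.60 to -0.38), so it differed in the other direction from Rspo3. The ubiquitin ligase gene Znrf3 was at -0.18 and the receptor gene Lgr4 at 0.01. Among secretion genes 3 of 5 reached 10 CPM and 0 passed 0.5, with Wls, the carrier of Wnt proteins to the surface, at -0.29 (-0.38 to -0.21), Tmed5 at -0.14 and Tmed2 at -0.12.

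Of 18 antagonist genes 3 reached 10 CPM and 0 passed 0.5. Sfrp1, a secreted protein that binds Wnts, had 36.1 and 27.8 CPM (-0.38, -0.45 to -0.31), Tpbg was at -0.27 and Sfrp2 at -0.18. Sfrp1 followed the markers opposite to Wnt3, with Irx3 ratios of 0.71 and 0.90 and Eomes ratios of -0.61 and -0.54. Of 19 transduction genes 17 reached 10 CPM and 0 passed 0.5, with a median of 0.01 and with Tcf7l2 at -0.24, Ctnnb1, which encodes beta-catenin, at -0.19 and Btrc at 0.19. Of 8 feedback genes 5 reached it and 1 passed 0.5, which was Sp5. Bambi was at -0.42 (-0.51 to -0.32) and Ccnd1 at -0.23 (-0.26 to -0.21).

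For each of the 6 members at 10 CPM or more, the genes most like it over the 12 points made by 6 classes in 2 libraries were named, by the Pearson correlation of log2(CPM + 1). The points of 1 library share its depth and its cells, so the values are a description only. Wnt3 was most like Slc5a5 and Agpat3 (0.98 each), Wnt8a like Arl4a (0.94) and Polr2h (0.92), and Rspo3 like Adgrl2 (0.96) and Manf (0.94). Fzd7 was most like Mbtd1 and C1d (0.93 each), Fzd10 like Eif5 (0.85) and F2rl1 (0.84), and Lrp6 like Myef2 (0.93) and Crk (0.91). Among the members, Wnt3 gave 0.87 with Rspo3, 0.81 with Wnt8a and -0.62 with Fzd7.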

How the data were processed

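Single cells of pooled mouse gastruloids were sequenced from 10x 3′ v3.1 libraries, 1 for each genotype label. The deposited matrices hold whole-number UMI counts, with no normalization. Per the submitters' processing notes STARsolo, STAR 2.7.9a, Seurat 5.1.0 and mm10 were used, and per the labels' protocols Cell Ranger 8.0.1, with roles and strand handling not given in the sources used here. Barcodes with at least 2500 UMIs, 1000 genes and at most 10% mitochondrial UMIs were kept. Counts were summed over cells and divided by all UMIs of those cells (CPM). Doublets were kept in the main values.

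The members and lists were chosen with earlier results of these data known. No test was made, because each group is 1 library. A gene was counted as different at a log2 ratio of 0.5 in size and a mean of 10 CPM. Levels have exact Poisson intervals, ratios exact conditional intervals and shares Clopper-Pearson intervals, all at 95%, and a count of 0 is given a limit of 3 counts. Log2 ratios carry a pseudocount of 0.5 UMIs. Named genes were the 10 members, T, Eomes, Irx3, Sp5 and Sp8, the 3 genes of each pathway list with the largest ratios at 10 CPM, the 2 genes most like each member, and the marker genes. Fzd2 and Ryk were added after their values were seen, as were the other ligand genes.

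Alternatives were cells of at least 4000 UMIs, a mitochondrial limit of 5%, removal of the 606 and 897 cells with the highest simulated-doublet scores, cells not low on chromosomes 6 and 11, thinning to 2500 or 5000 UMIs, TMM scaling (edgeR 4.0.16, R 4.3.3), equal class weights, at least 2 UMIs for a positive cell, and other limits. The ratio code was tested on simulated data. Python 3.11.15, numpy 2.4.6, scipy 1.17.1, pandas 2.3.3 and matplotlib 3.10.9 were used.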

Additional observations from a re-analysis of the deposited data

Results flagged for a closer look

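Wnt8a was lower in cells with a low share of UMIs on chromosome 6 in the library labelled WT, with a log2 ratio of -0.275 (-0.50 to -0.06), and higher in such cells in the library labelled dKO, at 0.256 (0.06 to 0.45). The opposite directions drew attention to it, and the difference between the libraries was not tested. Of the cells low on chromosome 6, 66.7% were also low on chromosome 11 in the library labelled WT and 13.5% in the library labelled dKO. Wnt8a was higher in cells low on 6 only in both libraries, at 0.40 and 0.34, and lower in cells low on both, at -0.96 and -0.75.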

How the results depend on the processing

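No library ratio that excluded 0 changed its sign under another setting, except that of Wnt8a, which was -0.0064 in thinned cells. Of 90 library ratios under other settings, 80 stayed within their counting error and 10 did not. Wnt3 was 0.27 over cells low on neither chromosome 6 nor 11, 0.28 with the limit on 11 alone, 0.27 with that on 6 alone and 0.22 with equal class weights. Fzd10 was -0.078, -0.088 and -0.070 under the same 3 chromosome limits. The limits on 1 chromosome were added after the data were seen. In thinned cells Fzd5 was -0.50 and Wnt3a 1.30, on 0 and 1 UMIs. The count of members past 0.5 was 0, and 1 (Wnt5b) at a mean of 1 CPM. Of the marker ratios 228 stayed and 42 moved, of the ratios within classes 99 and 9, of the shares of cells 23 and 37, and of the counts 3 and 1. No paired analysis was possible because each genotype has 1 library, and for the same reason no library could be left out. Depth limits Wnt3a, Wnt5a, Wnt5b and Fzd5 most.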
